A study of Mus musculus with 3 samples.

Results

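Expression of 8 genes of bone morphogenetic protein (BMP) and activin signalling was examined in mouse cardiac myofibroblasts, the contractile and matrix-producing cells that appear in the injured heart. The genes were chosen by name and by role, and not by a threshold on their signals, but with earlier results of these data known. They were the BMP ligands Bmp2 and Bmp4, the BMP antagonist Grem1, the activin subunit Inhba, the activin antagonists Fst and Fstl3, and the target genes Id1 and Id3. All 8 were measured, out of 20656 genes named by a feature of the array, and all 8 were among the 15390 genes that were well above background on at least 1 array. "Well above background" is the call that the scanner software makes for each spot from its brightness and the local background.

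The study asked which genes follow the mechanical support of the cells. Male C57BL/6J mice were given a myocardial infarction by permanently tying off a coronary artery, the left anterior descending, and hearts were taken 3 days later. The labels give the age as 8 weeks in 1 place and as 10 weeks at ligation in another. Heart tissue was digested with collagenase and elastase, attached cells were kept overnight on plastic, and the cells negative for the leukocyte surface protein CD45 were taken as myofibroblasts. All groups shared this origin, and the labels name no engineered allele and no drug. Adherent cells were grown for a week on plastic, non-adherent cells then spent a week in suspension on plates that prevent attachment, and re-adherent cells were put back on plastic after suspension. The states thus followed each other in time, so time in culture and state cannot be told apart, and the methods give far fewer cells recovered from suspension than were put in. Each state had 1 array, with RNA mixed from several hearts, so no difference has a replicate check and no p-value is given.

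BMPs and activins are secreted dimers of the transforming growth factor β family. They bind pairs of serine/threonine kinase receptors, after which BMP receptors phosphorylate SMAD1, SMAD5 and SMAD9 and activin receptors phosphorylate SMAD2 and SMAD3. Secreted antagonists such as gremlin and follistatin bind the ligands and keep them from the receptors, and the Id genes, which encode inhibitors of basic helix-loop-helix transcription factors, are direct transcriptional targets of the BMP branch. In the heart these pathways are known for valve and septum formation during development and for fibroblast activation after injury.

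The 3 arrays lay on the same slide. Of 59305 spots that were not controls, 53.9% to 59.9% per array were well above background, and none was saturated. Signals are background-subtracted intensity units, and levels are log2 signal relative to the 75th percentile of the same array (541 to 697 units). The error beside a signal or a difference is the scanner software's own. It was close to 0.20 on the log2 scale for most differences, and it covers technical error within arrays only. For bright spots it was a nearly fixed share of the signal, such as 4296 of 42962 units for Inhba and 1252 of 12520 for Id1 in adherent cells. It was thus not a spread measured between repeated spots. Probes printed 10 times gave a smaller figure, a median of 0.096 to 0.099 for the difference of a single spot. The labelled cell type was checked against its markers: all 9 fibroblast markers and all 5 myofibroblast markers were well above background on every array. So were 14 of 16 genes on a macrophage list, so presence alone did not single out the labelled type. Among them was Ptprc, which encodes CD45, at 355, 2441 and 532 units in adherent, non-adherent and re-adherent cells. Of the fibroblast markers, 4 were more than 2-fold lower and 2 more than 2-fold higher in suspension. Of the myofibroblast markers, 4 of 5 were more than 2-fold lower in suspension and as many were more than 2-fold higher after re-adhesion. Acta2, the smooth muscle actin of contractile fibroblasts, was at -6.64 and 6.57 on the log2 scale. The exception was Postn, which encodes periostin, at -0.12 and -0.09.

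Most of the 8 genes were lower in suspension than on plastic. On moving from plastic into suspension, 5 of 8 were more than 2-fold lower (Inhba, Bmp4, Fst, Fstl3 and Grem1) and 1 was more than 2-fold higher (Bmp2), while Id1 and Id3 differed by less than 2-fold. Of all 15390 genes, 14.7% were more than 2-fold lower and 17.2% more than 2-fold higher in the same pair of arrays. The median log2 difference of the 8 genes was -2.04, against -0.07 for all genes. As the 8 genes were chosen with earlier results of these data known, these figures describe the set and are no test. On return to plastic the same 5 genes were more than 2-fold higher, against 15.6% of all genes, and Bmp2 was more than 2-fold lower, against 16.3%. These comparisons share the non-adherent array, so the return is not independent of the loss. Between re-adherent and adherent cells, 1 of 8 was more than 2-fold lower, again Bmp2, against 4.89% of all genes, and 0 of 8 were more than 2-fold higher, against 4.84%.

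**Figure D1:**
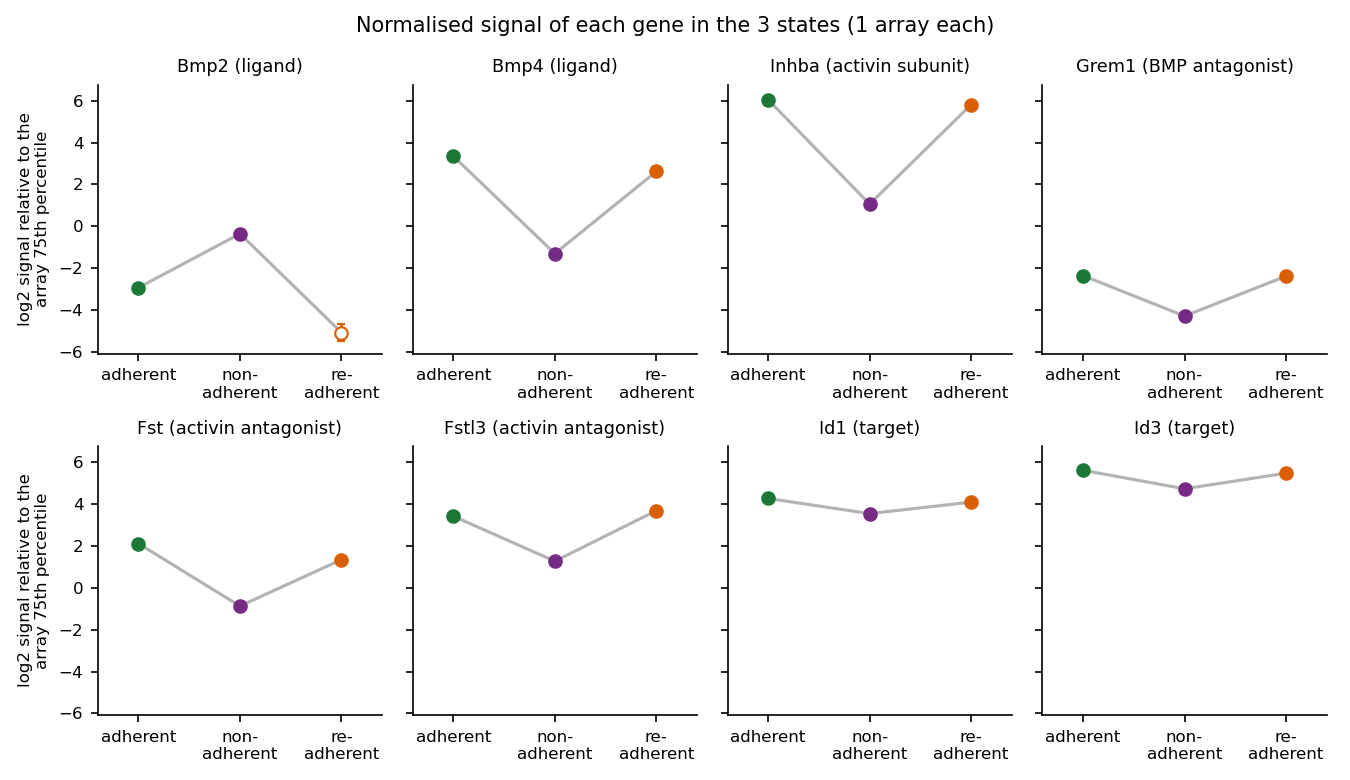
Normalised signal of each gene, as log2 relative to the array's 75th percentile, in adherent, non-adherent and re-adherent cells with 1 array each; bars are the software's error and are smaller than most symbols, the open circle was not well above background, and levels are to be compared within a panel only. All genes but Bmp2 were lowest in suspension, with Inhba going from 6.04 to 1.06 and back to 5.81, while Bmp2 was highest there.

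Among the BMP ligands, Bmp4 and Bmp2 went in opposite directions. Bmp4, a ligand of the BMP type I receptors that is needed for early mesoderm and heart development, gave 6649 ± 665 units in adherent cells, 282 ± 28.4 in suspension and 3329 ± 333 after re-adhesion (transcript NM_007554). The 3 values did not come near each other within their errors, and the order was adherent, re-adherent, non-adherent from high to low. The fall into suspension was -4.66 ± 0.20 on the log2 scale, or 25.3-fold, and it ranked 92nd from the lowest of 15390 genes. The rise on re-adhesion was 3.93 ± 0.20, or 15.2-fold, which regained 84.3% of the fall on the log2 scale. Re-adherent cells remained 1.66-fold below adherent cells, at -0.73 ± 0.20, a gap over 3 times its technical error but under the 2-fold threshold. With spike-in scaling the gap was -1.21, which passed 2-fold. A second probe of the same transcript gave 4.4, 3.8 and 5.0 units, not well above background in any state, so Bmp4 rests on 1 probe.

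Bmp2, a close relative of Bmp4 that acts through the same receptors and is known for bone and cardiac cushion formation, was dim on plastic (transcript NM_007553). Its signal was 85.5 ± 9.4 units in adherent cells, 544 ± 54.5 in suspension and 16.0 ± 4.6 in re-adherent cells, where it was not well above background. The order was thus non-adherent, adherent, re-adherent, the reverse of Bmp4 between plastic and suspension. Suspension cells were higher than adherent cells by 2.57 ± 0.21 on the log2 scale, or 5.95-fold, the 681st highest of all genes. Re-adherent cells were at least 23.1-fold lower than suspension cells and at least 3.87-fold lower than adherent cells, with measured differences of -4.72 ± 0.44 and -2.15 ± 0.45. On the log2 scale, the change of Bmp4 into suspension lay 7.23 ± 0.30 below that of Bmp2. With background correction by normexp in place of the software's own, the drop of Bmp2 below adherent cells shrank to -0.61 and no longer passed 2-fold.

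Markers of other cell types moved in the same direction as Bmp2 in part of the comparisons. In such bulk samples, fewer cells of a type and less RNA per cell cannot be told apart. Of 16 macrophage markers, 14 were well above background on each array (Cd163 was not well above background and Cd68 was named by no feature), and 13 were more than 2-fold higher in suspension than in adherent cells. Their summed scaled signal, in multiples of the array's 75th percentile, was 220.5 in adherent cells, 1365 in suspension and 461.1 in re-adherent cells. On re-adhesion 12 macrophage markers were more than 2-fold lower, but between re-adherent and adherent cells 7 were more than 2-fold higher and 0 lower, opposite to Bmp2. Of 10 endothelial markers, 7 were more than 2-fold higher in suspension, 9 were more than 2-fold lower on re-adhesion and 6 were more than 2-fold lower in re-adherent than in adherent cells. Tie1, Emcn, Cldn5 and Erg, all endothelial markers, were not well above background in re-adherent cells. The summed endothelial signal was 16.9, 23.68 and 20.04 in the order adherent, non-adherent and re-adherent. Most of it came from Kdr, a VEGF receptor, and the sum without Kdr was 2.384, 12.29 and 0.9697. Cdh5, the adhesion molecule of endothelial junctions, differed by 2.94, -6.12 and -3.18 on the log2 scale in the 3 comparisons. The cell mixture bears on every gene measured in these bulk samples, not on Bmp2 alone. The part of these cells in the values of Bmp2, of the other genes examined and of the wider pathway was not tested.

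Inhba encodes the βA subunit, 2 of which form activin A. Of the 8 genes it had the largest change into suspension: 42962 ± 4296 units in adherent cells, 1451 ± 145 in suspension and 30448 ± 3045 after re-adhesion (transcript NM_008380). Both plastic arrays were far above the suspension array and close to each other. The fall was -4.99 ± 0.20 on the log2 scale, or 31.7-fold, which placed Inhba 69th from the lowest of 15390 genes. On re-adhesion it rose by 4.76 ± 0.20, or 27.0-fold, the 121st highest of all genes, and regained 95.4% of the fall. Re-adherent and adherent cells differed by -0.23 ± 0.20, about the size of the technical error, but by -0.50 without scaling, -0.45 with quantile normalisation and -0.70 with spike-in scaling. The falls of Inhba and Bmp4 into suspension differed by -0.33 ± 0.29, also close to that error.

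**Figure D2:**
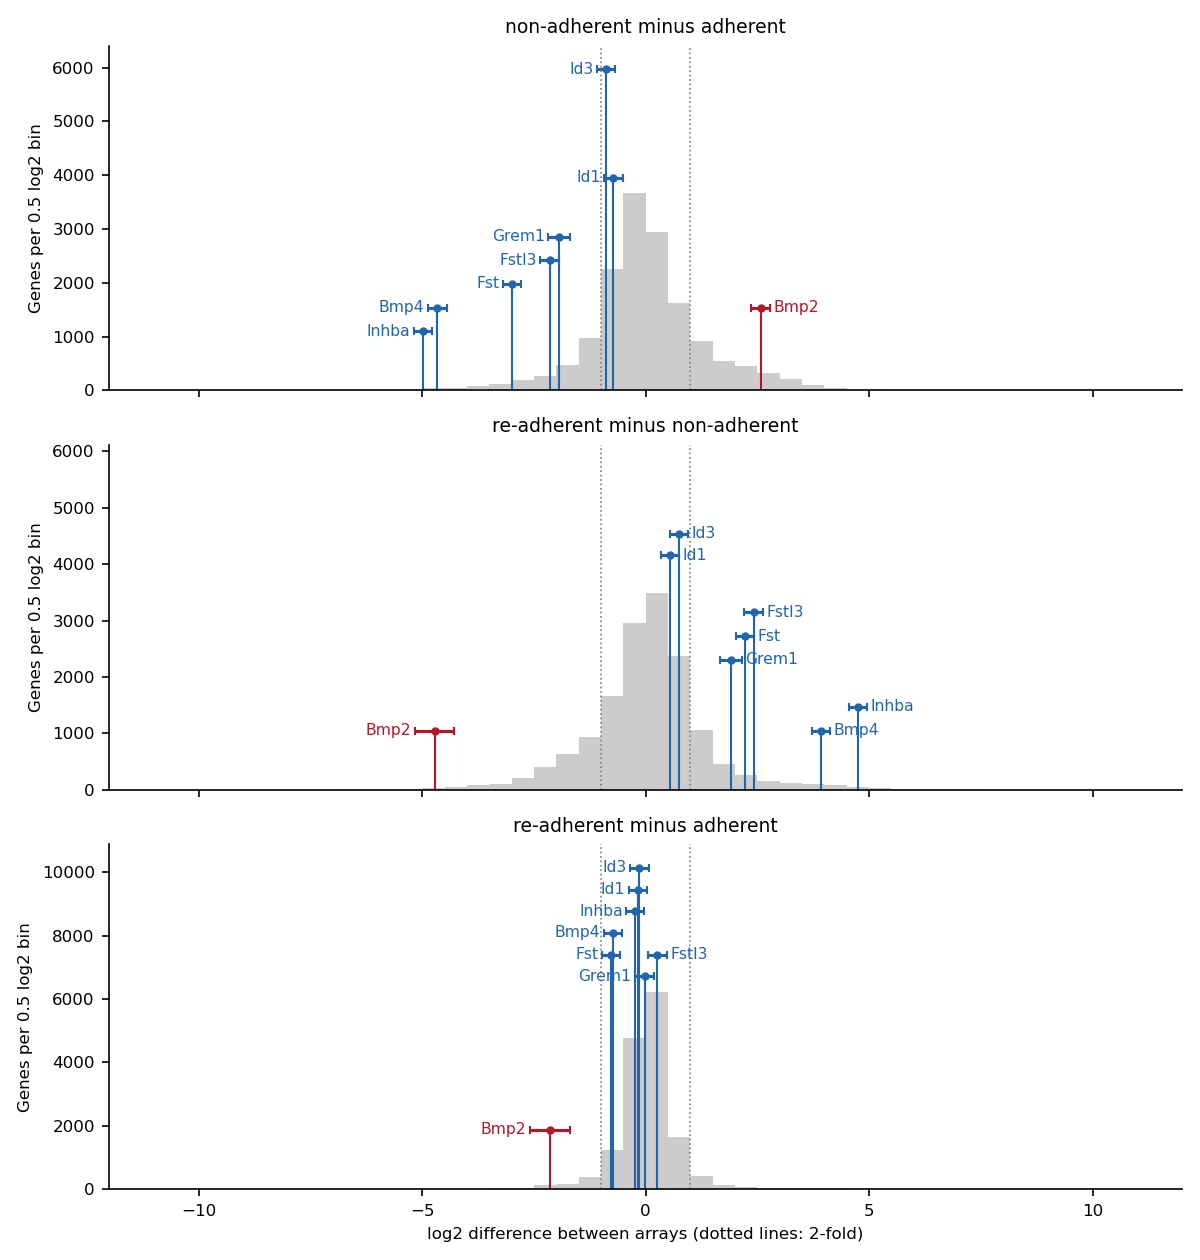
Grey bars count all 15390 genes per 0.5 log2 bin of the difference between arrays in each comparison; coloured stems mark the 8 genes (Bmp2 in red) at their log2 difference, with the software's error as a horizontal bar, and stem height has no meaning. Inhba at -4.99 and Bmp4 at -4.66 sat in the far lower tail in suspension, the Id genes stayed inside the dotted 2-fold lines, and in re-adherent against adherent cells Bmp2 alone of the 8 lay outside them.

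The antagonists were lower in suspension too, by less than Inhba and Bmp4. Fst encodes follistatin, which binds activins with high affinity and some BMPs more weakly. Its signal was 2815 ± 282 units in adherent cells, 380 ± 38.2 in suspension and 1375 ± 138 after re-adhesion (transcript NM_008046), so the re-adherent value lay between the others. Fst was 7.92-fold lower in suspension (-2.99 ± 0.20), rose 4.65-fold on re-adhesion (2.22 ± 0.20) and ended 1.70-fold below adherent cells (-0.77 ± 0.20), with 74.3% of the fall regained. The last difference passed 2-fold without scaling (-1.03) and with spike-in scaling (-1.24).

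Fstl3 encodes a follistatin-like glycoprotein that binds activins and myostatin. It gave 6971 ± 697 units in adherent cells, 1680 ± 168 in suspension and 6959 ± 696 after re-adhesion (transcript NM_031380). It was 4.44-fold lower in suspension (-2.15 ± 0.20) and 5.33-fold higher again on re-adhesion (2.41 ± 0.20). The plastic arrays differed by 0.26 ± 0.20 after scaling, little more than the error, and this sign turned with spike-in scaling (-0.21) and without scaling. Between re-adherent and adherent cells, the difference of Fst lay 1.03 below that of Fstl3 on the log2 scale.

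Grem1 encodes gremlin, an antagonist that binds BMP2, BMP4 and BMP7. Its signal was dim throughout, at 127 ± 13.2 units in adherent cells, 35.7 ± 4.7 in suspension and 104 ± 11.2 after re-adhesion (transcript NM_011824), and it was well above background on all 3 arrays. Grem1 was 3.82-fold lower in suspension (-1.93 ± 0.24) and 3.75-fold higher on re-adhesion (1.91 ± 0.25), which regained 98.7% of the fall. The difference between the plastic arrays was within the error (-0.03 ± 0.22), but beyond it without scaling (-0.29) and with spike-in scaling (-0.50). With normexp the fall of Grem1 was -0.97, just short of 2-fold.

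The changes of Inhba and Bmp4 differed from those of their antagonists by more than the technical error. Into suspension, the change of Inhba lay 2.00 ± 0.29 below that of Fst and 2.84 below that of Fstl3 on the log2 scale, and the change of Bmp4 lay 2.73 ± 0.32 below that of Grem1. On re-adhesion the differences ran the other way, with Inhba 2.54 above Fst and 2.34 above Fstl3, and Bmp4 2.02 above Grem1. These are gaps between changes of RNA, and no level of 1 gene is set against that of another.

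The target genes Id1 and Id3 moved far less than Bmp4. Id1, an inhibitor of differentiation factors that responds to BMP receptors through SMAD1 and SMAD5, gave 12520 ± 1252 units in adherent cells, 8131 ± 813 in suspension and 9231 ± 923 after re-adhesion (transcript NM_010495). The values were highest on the adherent array, and those in suspension and after re-adhesion were within about 1 error of each other before scaling. After scaling, the differences were -0.72 ± 0.20 into suspension, 0.55 ± 0.20 on re-adhesion and -0.17 ± 0.20 between the plastic arrays, folds of 1.65, 1.46 and 1.13. Id3, a paralogue of Id1 with the same mode of action, gave 31851 ± 3185, 18483 ± 1848 and 24070 ± 2407 units in the same order (transcript NM_008321). Its differences were -0.88 ± 0.20, 0.74 ± 0.20 and -0.14 ± 0.20, with folds of 1.84 and 1.68 for the first pair. With the 75th percentile as the scale, both genes were lowest in suspension by more than the technical error, and neither passed 2-fold in any comparison. Without scaling, the rise of Id1 on re-adhesion was 0.18 ± 0.20, within the error. Id3 reached -1.08 in suspension under spike-in scaling. The changes of Id1 and Id3 into suspension differed by 0.16 ± 0.29, within the error. The change of Bmp4 into suspension lay 3.94 below that of Id1 and 3.78 below that of Id3.

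Promoter sequence is shown for Inhba and Bmp4, the genes with the largest falls among the 8, and for an antagonist and a target gene, so that SMAD-binding letters can be seen beside the changes. Each run is the 250 bases before the RefSeq start of the gene, 5′ to 3′ on the gene's strand in GRCm38.p6: Bmp4 at chr14:46390670-46390919 on the minus strand, Inhba at chr13:16011601-16011850 on the plus strand, Grem1 at chr2:113758649-113758898 on the minus strand and Id3 at chr4:136143572-136143821 on the plus strand. Capitals mark GGCGCC, a palindrome known to bind SMAD1 and SMAD5, and CAGAC or its reverse complement GTCTG, the SMAD box.
Bmp4: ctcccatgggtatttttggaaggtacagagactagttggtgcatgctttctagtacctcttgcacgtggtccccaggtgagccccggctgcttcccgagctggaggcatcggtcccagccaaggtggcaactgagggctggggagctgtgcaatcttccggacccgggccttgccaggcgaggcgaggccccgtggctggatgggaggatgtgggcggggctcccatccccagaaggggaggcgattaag
Inhba: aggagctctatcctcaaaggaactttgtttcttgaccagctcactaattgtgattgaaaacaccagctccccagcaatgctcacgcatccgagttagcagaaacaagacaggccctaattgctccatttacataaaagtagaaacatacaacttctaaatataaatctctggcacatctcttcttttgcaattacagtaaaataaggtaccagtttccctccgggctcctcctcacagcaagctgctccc
Grem1: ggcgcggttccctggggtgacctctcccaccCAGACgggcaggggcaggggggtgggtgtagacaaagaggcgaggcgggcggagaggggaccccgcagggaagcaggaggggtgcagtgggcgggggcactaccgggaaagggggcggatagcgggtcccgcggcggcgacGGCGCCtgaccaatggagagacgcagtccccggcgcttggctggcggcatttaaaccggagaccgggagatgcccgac
Id3: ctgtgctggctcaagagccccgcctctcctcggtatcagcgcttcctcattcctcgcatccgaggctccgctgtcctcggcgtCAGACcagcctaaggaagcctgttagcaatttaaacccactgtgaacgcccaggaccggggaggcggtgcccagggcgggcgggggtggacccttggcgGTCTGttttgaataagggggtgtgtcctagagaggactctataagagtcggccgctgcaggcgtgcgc

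A window was found for 5 of the 8 genes. Of 32851 windows of the same length, 9.59% held GGCGCC and 42.2% held CAGAC on either strand. Neither was present in the Bmp4 or Inhba window. The Grem1 window held 1 GGCGCC, starting 78 bases before the start of the gene, and 1 CAGAC. The windows of Id3 and Fstl3 each held 2 CAGAC on 1 strand or the other and no GGCGCC. Letters for factors that respond to mechanical cues were searched as well on both strands: GGAATG, bound by TEAD factors and present in 12.6% of windows, occurred once, in the Id3 window, and the CArG box of serum response factor, present in 1.47%, occurred in none of the 5. GC content was 63.2% for Bmp4, 43.2% for Inhba, 72% for Grem1, 71.2% for Fstl3 and 62.8% for Id3, against a median of 52.4%. A match describes letters only, and its absence says only that they are not in this window.

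The wider pathway was described with role lists of 87 other genes, of which 70 passed the filter on dim probes. In suspension, 21 of the 70 were more than 2-fold lower and 9 more than 2-fold higher, with a median log2 difference of -0.34. On re-adhesion 11 were lower and 23 higher (median 0.26), and between the plastic arrays 5 were lower and 4 higher (median -0.11). The shares of all genes in the same comparisons are those given above. The genes named from each list are mostly those with the largest change among genes well above background on all 3 arrays. Some others are named beside them, chosen after their values were seen, and some of the genes picked are not reported here.

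Among 17 other ligands, 5 were more than 2-fold lower and 4 more than 2-fold higher in suspension. Gdf6, a BMP-type ligand of joint and eye development, went from 3882 units to 141 and back to 4689, differences of -4.88 and 5.42. Bmp6, a ligand known for control of iron through hepcidin, went from 1037 to 62.9 and 705 units, differences of -4.14 and 3.85. These ligands shared the direction of Bmp4 into suspension and on re-adhesion. Gdf3, a ligand related to nodal, gave 309, 3174 and 604 units, differences of 3.26 and -2.03, with its second probe at 1.41 and -1.02. Gdf3 thus followed the direction of Bmp2 into suspension and on re-adhesion. Between re-adherent and adherent cells Gdf3 was higher (1.23, second probe 0.38), while Bmp2 was lower (-2.15).

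Of 9 receptor genes that passed the filter, 1 was more than 2-fold lower in suspension and 0 were higher, with a median of -0.44, and on re-adhesion 1 was lower and 2 were higher. The gene that was lower in suspension was Bmpr1b, a BMP type I receptor, by at least 13.3-fold, since it was not well above background there. This value is from the brighter of its 2 probes that passed the filter, and the other probe is not shown. Acvrl1, the ALK1 receptor for BMP9 and BMP10, differed by -0.69 and then by 1.55 on re-adhesion. The activin receptors Acvr2b and Acvr1b differed by 0.76 and 0.88 in suspension, below 2-fold, and by -1.07 and -0.85 on re-adhesion. Acvr1b was dim, at 56.8, 112 and 48.3 units. Acvr2a, another activin receptor, went the other way, by -0.62 and then 0.36. Of 5 co-receptor genes, 1 was more than 2-fold lower in suspension and 0 were higher, with a median of -0.36. This was Eng, the endoglin co-receptor of ALK1, which was lower in suspension (-1.39) and higher on re-adhesion (1.72). Between the plastic arrays 1 other co-receptor gene was more than 2-fold lower.

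Among 14 other antagonists and modulators, 4 were more than 2-fold lower and 2 more than 2-fold higher in suspension. Crim1, a transmembrane protein that binds BMPs, went from 5492 units to 256 and back to 3508, differences of -4.52 and 4.14. Kcp, a chordin-like modulator of BMP and TGF-β signals, gave 415, 1407 and 83.4 units, differences of 1.66 and -3.71, and was below adherent cells after re-adhesion (-2.05). Noggin (Nog) and chordin (Chrd), BMP antagonists of the early embryo, differed by -0.61 and -0.25 in suspension.

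All 10 SMAD and SMURF genes were below 0 in suspension, as were 8188 of all 15390 genes, and their median was -0.70; 4 of them were more than 2-fold lower. The lowest were Smad9, a transducer of the BMP branch, at -2.22, and Smad7, an inhibitory SMAD of both branches, at -2.18. Smad6, an inhibitory SMAD of the BMP branch, followed at -1.55. On re-adhesion these rose by 1.73, 1.88 and 1.04. The transducers Smad1 and Smad5 were at -0.33 and -0.30, Smad2 and Smad3 at -0.14 and -0.43, and the common partner Smad4 at -0.51, all under 2-fold.

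Of the 9 other direct BMP targets that passed the filter, 5 were more than 2-fold lower and 1 more than 2-fold higher in suspension, with a median of -1.55. Smad6, Smad7 and Smad9 are on this list too. Id4, an Id paralogue, went from 617 units to 82.9 and 222, differences of -2.99 and 1.78, and Atoh8, a helix-loop-helix factor induced by BMP receptors in endothelium and liver, went from 1816 to 250 and 1618 units, differences of -2.96 and 3.06. Hey1, a target shared with Notch signalling, went the other way, from 171 to 965 and 94.6 units, differences of 2.40 and -2.99. Id2 differed by 0.81 and then -1.17. Of the 4 Id genes, Id4 alone passed 2-fold in suspension with the 75th percentile as the scale.

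**Figure D3:**
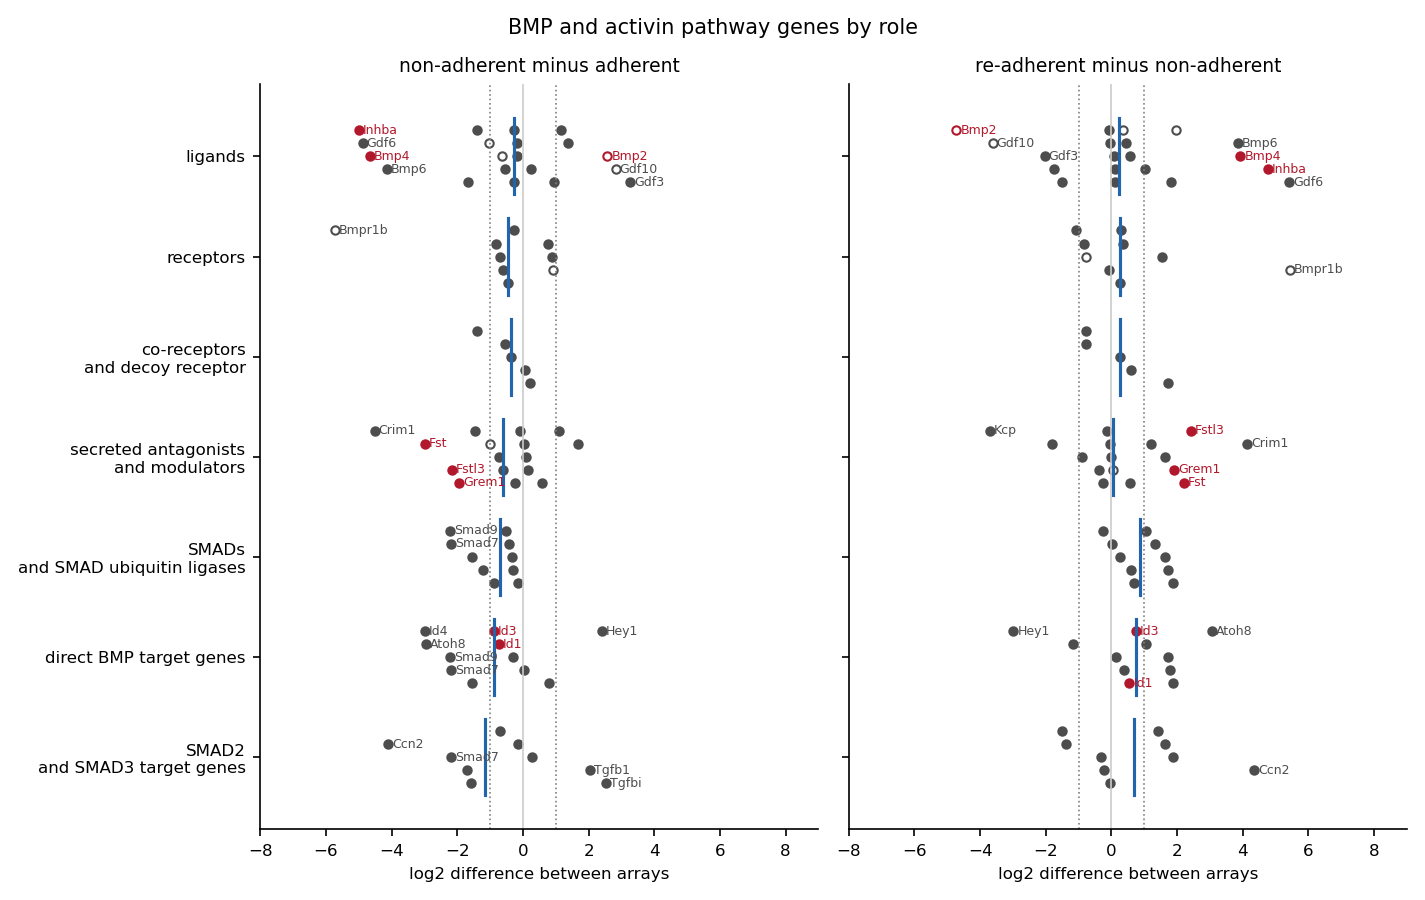
Log2 difference of the BMP and activin pathway genes that passed the filter, apart from 2 that are not drawn, by role list, into suspension (left) and on re-adhesion (right); red points are the 8 genes, open points were not well above background on at least 1 array, blue bars are medians over the whole list with the 8 genes included, and dotted lines mark 2-fold. Inhba, Bmp4, Gdf6 and Bmp6 lie far left in suspension and far right on re-adhesion, and Bmpr1b, drawn at its measured value, was not well above background in suspension.

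Genes with the pattern nearest to each of the 8 were sought among at most 13476 genes well above background on all arrays, by the distance between the log2 differences of the first 2 comparisons. Nearest to Bmp2 were Ccl8, a chemokine, at a distance of 0.18, and Apoc1, an apolipoprotein, at 0.35. These distances take the re-adherent signal of Bmp2 as measured, although it was not well above background and gives only a bound, so their order is uncertain. Nearest to Bmp4 were Steap1 (0.14) and Arhgdig (0.22), and nearest to Inhba were Tent5b (0.06) and Osr1, a transcription factor of mesenchyme (0.18). Fst lay nearest to Loxl3, a lysyl oxidase (0.09), and Vdr, the vitamin D receptor (0.11). Fstl3 lay nearest to Aldh5a1 (0.07) and Ankrd29 (0.09), and Grem1 nearest to Mllt3 and Lats2, both at 0.04. The nearest genes to Id1 were Usp31 and Mrpl47, at 0.0079 and 0.014, and those to Id3 were Rbm28 and Gabrr2, at 0.0083 and 0.024. Distances shrank for small changes, where genes are crowded, and with 3 arrays they rank likeness only.

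**Figure D4:**
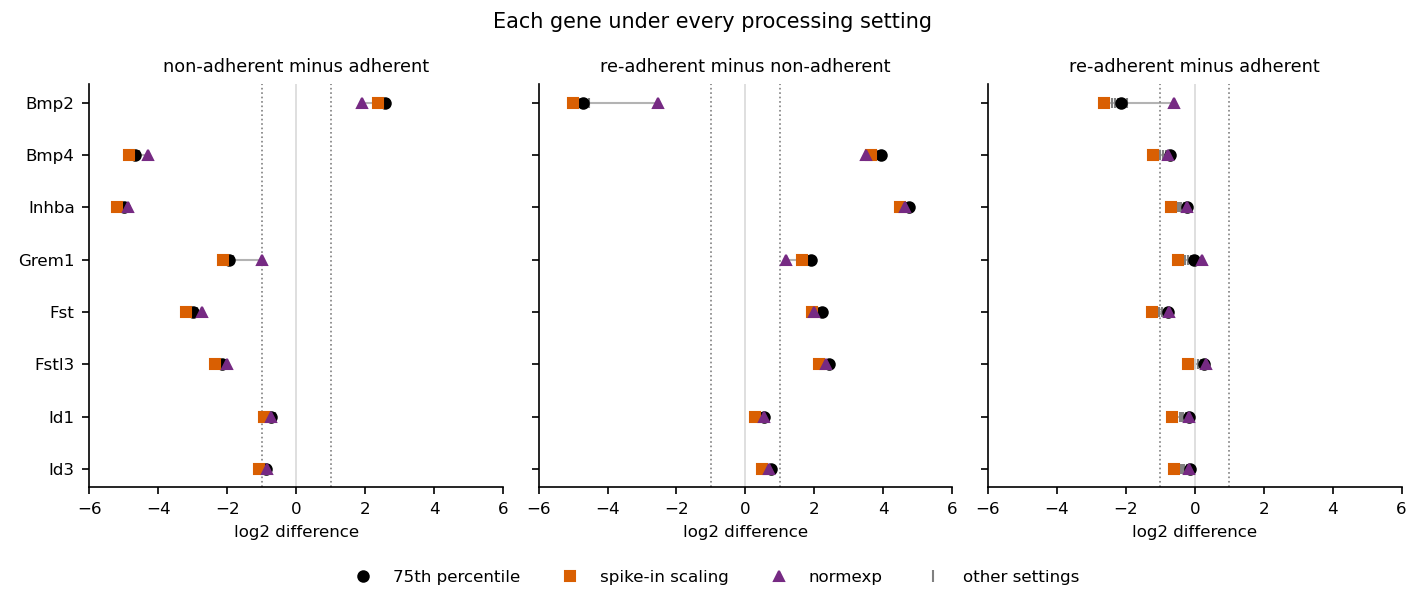
Log2 difference of each of the 8 genes in the 3 comparisons under every processing setting; circles are the 75th percentile, squares spike-in scaling, triangles normexp background correction, ticks the others, and dotted lines mark 2-fold. Points lie close together for most genes, while normexp drew the dim genes Bmp2 and Grem1 towards 0, Bmp2 to -0.61 in re-adherent against adherent cells.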

How the data were processed

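Cy3-labelled cRNA from 3 RNA samples was hybridised to 1-colour Agilent mouse arrays, 1 array per state, and groups follow the labels. The authors deposited scanner output of Agilent Feature Extraction 10.10.1.1, in which each spot has a processed signal intensity on a linear scale, background-subtracted by the software, and a matrix whose intensity values equal that signal times 1 constant per array (1.52, 1.52 and 1.62). Flagged spots were left out, the 75th percentile of log2 signal over non-control spots was subtracted within each array, and spots of a probe were averaged. Transcript names were matched, without version, to RefSeq (GRCm38.p6), which gave symbols to 27229 of 55681 probes. The design and table builds differ, so gene coordinates are not given; promoter coordinates are those of the RefSeq table. Probes that were well above background on no array were dropped, and the brightest remaining probe stood for its gene. Python 3.11.15 with pandas 2.3.3, and limma 3.58.1 in R 4.3.3 for normexp, were used. Lower and higher mean more than 2-fold. A gene not well above background has a bound, the brighter signal divided by its own dim signal or by that array's lowest value well above background, whichever is higher. Such a bound holds for the software's background correction only. With 1 array per state no test was run, and the number of arrays limits the precision. The 75th percentile scaling and the gene steps were tested on simulated arrays in which few genes changed. Scaling with as many changed genes as here was not tested.

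Named genes were the 8 genes and the 2 nearest patterns of each. Up to 3 others per role list, with the largest difference among genes well above background on all arrays, were picked too. Other list genes named beside them and markers were chosen after their values were seen. These list genes were Bmpr1b, Acvr2a, Nog, Chrd, Smad1 to Smad6, Id2, Ltbp2, Tgfb1, Skil and Pmepa1. The list genes that the rule picked but that are not named are not reported here. The genes and lists were chosen with earlier results of these data known. Alternatives were scaling (none, the deposited matrix, probes well above background on all arrays, quantile, spike-ins), the filter, the floor, flagged spots, the mean over probes, other fold thresholds and normexp with an offset of 50, run on median signals, a choice made after seeing that the files hold no mean signal.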

Additional observations from a re-analysis of the deposited data

How the results depend on the processing

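Of 261 alternative values of the 8 genes' log2 differences, 211 moved by no more than the technical error, 48 moved by more and 2 changed sign. Part of the 211 could not move, as each gene had 1 probe that passed the filter and no flagged spot. These were 24 values with flagged spots kept, 24 with the mean over probes, 24 without the filter and 21 with the filter on all arrays. Raising low signals to the floor altered Bmp2 only. The difference of Fstl3 between re-adherent and adherent cells, 0.26 as reported, was -0.0025 without scaling and -0.2098 with spike-in scaling, which moved the median of all genes in that comparison from 0.06 to -0.41 (and to -0.27 into suspension and -0.20 on re-adhesion); relative to those medians Fstl3 was higher in both cases. The falls of Inhba into suspension ranged from -5.18 to -4.86, of Bmp4 from -4.85 to -4.29, of Fst from -3.18 to -2.74, of Fstl3 from -2.35 to -2.02 and of Grem1 from -2.13 to -0.97, the last with normexp. Bmp2 ranged from 1.92 to 2.67 into suspension, from -5.08 to -2.54 on re-adhesion and from -2.62 to -0.61 between plastic arrays, the values nearest 0 with normexp. On re-adhesion, Id1 ranged from 0.18 to 0.55 and Id3 from 0.38 to 0.74, lowest without scaling.

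Of the 8 genes, 1 was more than 2-fold lower in re-adherent than in adherent cells; this count was 2 without scaling, 3 with spike-in scaling (Bmp4 at -1.21 and Fst at -1.24 joined Bmp2), 3 over 1.5-fold, 0 with normexp and 0 over genes well above background on all arrays, which leaves Bmp2 out. That filter also gave 0 in place of 1 for the count higher in suspension and for the count lower on re-adhesion. For the 70 other pathway genes, over 4-fold, 11 were lower and 5 higher in suspension, 4 lower and 7 higher on re-adhesion, and 2 lower and 0 higher between plastic arrays; over 1.5-fold, 14 were higher in suspension and 13 were lower and 7 higher between plastic arrays. Between plastic arrays, 9 were lower and 1 higher without scaling, 15 lower and 0 higher with spike-in scaling, 3 lower with normexp, and 7 higher without the filter on dim probes. The other 134 of 156 alternative counts stayed within 1.5 times of those reported. Keeping flagged spots, averaging probes and dropping the filter could not change the counts of the 8 genes. Why values moved was not tested. Normexp on mean signals was not run. No paired analysis was possible because there was a single array per state, and for the same reason no replicate could be left out. Bmp2 on plastic and Grem1 in suspension gave signals near the background.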

Other observations

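The activin branch acts through SMAD2 and SMAD3, whose targets are shared with TGF-β. Of 11 genes on a list of such targets, 10 passed the filter, and in suspension 5 were more than 2-fold lower and 2 more than 2-fold higher, with a median log2 difference of -1.14 against -0.07 for all genes. On re-adhesion 2 were lower and 5 higher. Of all genes, 14.7% were lower and 17.2% higher in suspension, and 16.3% were lower and 15.6% higher on re-adhesion. Ccn2, the matricellular connective tissue growth factor, gave 195460, 12232 and 194380 units, differences of -4.10 and 4.35. Ccn2 returned to the adherent level within about the technical error, as Inhba did. Tgfbi, a secreted matrix protein, went the other way, with 6700 units in adherent cells, 41261 in suspension and 12227 after re-adhesion, differences of 2.52 and -1.39, and stayed 1.13 above adherent cells on the log2 scale. Ltbp2, a microfibril protein, was lower in suspension (-1.70) and did not come back (-2.03 in re-adherent against adherent cells). Tgfb1, the ligand TGF-β1, was 2.05 higher in suspension and then fell by 1.51 on the log2 scale. Skil and Pmepa1, also on the list, changed little. They differed by -0.14 and 0.27 in suspension and by -0.22 and -0.03 on re-adhesion.

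The remaining marker lists gave the following summed scaled signals in adherent, non-adherent and re-adherent cells. Fibroblast markers gave 1103, 884 and 831.2, myofibroblast markers 1636, 29.89 and 1629, mural markers 18.25, 14.99 and 13.71, epicardial and mesothelial markers 3.591, 2.444 and 7.135, and cardiomyocyte markers, of which 4, 6 and 4 of 9 were well above background, 1.187, 1.989 and 3.365. Without the brightest gene of each list, some sums ran differently. They were 572.6, 620.2 and 411.4 for fibroblast markers without Col1a2, and 3.34, 3.961 and 1.683 for mural markers without Pdgfrb. Without Tnnt2 the cardiomyocyte sums were 0.2763, 0.6179 and 0.3242. Without Acta2 the myofibroblast sums were 967.8, 23.17 and 991.3, and without Krt19 the epicardial and mesothelial sums were 2.102, 2.136 and 4.138. The part of these cell types in the results was not tested.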
